A study of Mus musculus with 12 samples.

Results

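Voltage-gated calcium channels were followed through 10 subunit genes in the mouse trigeminal ganglion: 6 genes for the pore-forming alpha1 subunit (Cacna1a, Cacna1b, Cacna1c, Cacna1d, Cacna1e and Cacna1h), 3 for the alpha2delta subunit (Cacna2d1, Cacna2d2 and Cacna2d3) and 1 for a beta subunit (Cacnb4). They were taken by name out of 55416 gene identifiers. The rule uses no measured value, although earlier results of these data were known when the genes were listed. Another 16 calcium channel subunit genes, gamma subunits included, were read beside them.

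Bulk RNA-seq counted reads per gene in trigeminal ganglia of adult C57Bl6 mice, with 6 inducible knockout (iKO) and 6 control libraries, taken 1 month after the animals were injected. All 6 iKO animals carried Rosa26Cre ERT2 and Prdm12 Fl/Fl and received tamoxifen. Replicates 1 to 3 were female and replicates 4 to 6 male. The controls were of several kinds. Control 1 (female) carried Rosa26Cre ERT2 and 1 floxed Prdm12 allele, control 2 (female) and control 3 (male) carried 1 floxed allele without Cre, and control 4 (male) carried Cre without a floxed allele, and these 4 received tamoxifen. Controls 5 and 6 (both male) were Rosa26Cre ERT2; Prdm12 Fl/Fl like the knockouts and received corn oil in place of tamoxifen. As background, the Rosa26 locus is active in nearly all cell types. Recombination by cell type was not tested, and each library holds RNA of the whole ganglion. Prdm12 encodes a transcriptional regulator needed for nociceptor development.

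Voltage-gated calcium channels open when the membrane is depolarised and let calcium into the cell. The alpha1 subunit forms the pore and sets the current type, the beta subunit binds the intracellular linker between the first and second repeat of the high-voltage-activated alpha1 subunits, and the extracellular alpha2delta subunit raises the number of channels at the membrane. In sensory neurons N-type and P/Q-type channels trigger transmitter release, and T-type channels lower the threshold for firing. The alpha2delta subunits encoded by Cacna2d1 and Cacna2d2 bind the analgesic gabapentinoids.

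The beta-binding site, the alpha interaction domain, differs in its residues between the L-type and the other high-voltage-activated alpha1 genes. Its coding sequence is shown for that reason. It was read from the longest coding transcript of each gene in GENCODE M21 (build GRCm38), and capitals mark the codons of the residues used to find it.
Cacna1a: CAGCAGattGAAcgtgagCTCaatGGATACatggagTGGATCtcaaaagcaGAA
Cacna1b: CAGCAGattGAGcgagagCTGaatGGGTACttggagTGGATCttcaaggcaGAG
Cacna1c: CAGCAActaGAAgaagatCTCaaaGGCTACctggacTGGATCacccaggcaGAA
Cacna1d: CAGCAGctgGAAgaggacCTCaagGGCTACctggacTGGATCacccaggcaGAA
Cacna1e: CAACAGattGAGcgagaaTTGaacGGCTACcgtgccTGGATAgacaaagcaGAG
The site is 54 bases and 18 codons long. The L-type pair Cacna1c and Cacna1d had 49 of 54 bases in common and encoded the same residue at 18 of 18 codons. Cacna1a and Cacna1b shared 45 of 54 bases and 16 of 18 residues, whereas Cacna1c and Cacna1e shared 34 bases and 10 residues. The R-type gene Cacna1e shared 15 of 18 residues with Cacna1a and with Cacna1b. The bases alone did not separate the kinds, since Cacna1a shared 39 with Cacna1c and 36 with Cacna1e. The T-type genes Cacna1h, Cacna1g and Cacna1i had 0 matches to the pattern.

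In the alpha2delta genes the arginine triplet known as part of the gabapentinoid site is shown, with the triplet in capitals.
Cacna2d1: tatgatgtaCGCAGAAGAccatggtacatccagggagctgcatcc
Cacna2d2: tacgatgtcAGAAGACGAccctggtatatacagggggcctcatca
Cacna2d3: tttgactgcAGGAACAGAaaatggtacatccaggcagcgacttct
Cacna2d1 and Cacna2d2, the gabapentinoid-binding members, had 3 arginine codons in the triplet, and Cacna2d3 had 2.

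Total counts ran from 13207526 to 24178970 per library. The targeted gene matched the labels: Prdm12 was at 106 ± 28.4 CPM (the count scaled to the library total, after TMM normalisation) in controls and 16.8 ± 1.97 CPM in iKO (SD, n = 6 each). Among controls it ran from 56.9 CPM in control 6 to 133 CPM in control 5, both given corn oil. The iKO and control groups did not overlap, and edgeR put the difference at -2.64 ± 0.19 on the log2 scale (SE, adjusted p = 2.7e-05). The 17 shared sensory neuron markers, including Isl1, Pou4f1 and Avil, were all detected, with sums of 12622 to 15559 CPM in controls and 13155 to 15686 CPM in iKO. Libraries with RNA of neighbouring tissue stood apart. The sum of 10 skeletal muscle markers was 71.3 to 276 CPM in controls, 1086 CPM in iKO 5 and 329 CPM in iKO 6. The sum of 8 oligodendrocyte and astrocyte markers was highest in control 6 (2749 CPM), and that of 5 pituitary markers in iKO 3 (2799 CPM). Pituitary Lhb was at 0 in every library.

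The ganglion transcribed all 10 genes, at levels that spanned more than an order of magnitude once divided by length. In controls the N-type pore gene Cacna1b led the alpha1 genes at 18.7 ± 1.75 CPM per kilobase of exon (SD, n = 6). It was followed by the P/Q-type gene Cacna1a at 12.5 ± 1.31 and the T-type gene Cacna1h at 7.18 ± 1.09. The L-type genes were lower, Cacna1c at 4.10 ± 0.423 and Cacna1d at 1.63 ± 0.223 CPM per kilobase, and the R-type gene Cacna1e was lowest at 0.763 ± 0.0817. Among these 6 genes the control ranges of neighbours in the order did not overlap.

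Among alpha2delta genes, Cacna2d1 stood at 16.0 ± 1.71 CPM per kilobase in controls, Cacna2d3 at 9.05 ± 0.761 and Cacna2d2 at 7.38 ± 0.919. The ranges of Cacna2d3 and Cacna2d2 overlapped across libraries, although Cacna2d3 was the higher in 6 of 6. Cacnb4, whose product is 1 of 4 beta subunits, was at 23.4 ± 2.75 CPM per kilobase. Ordered as a whole in controls, the levels per length fell from Cacnb4 through Cacna1b, Cacna2d1, Cacna1a, Cacna2d3, Cacna2d2, Cacna1h, Cacna1c and Cacna1d to Cacna1e. The neighbours Cacna1b and Cacna2d1, Cacna2d1 and Cacna1a, and Cacna2d2 and Cacna1h also had overlapping ranges. The iKO libraries gave the same order except that Cacna1h passed Cacna2d2. The order between classes depended on the length used: with the longest transcript in place of all exons, Cacna2d1 came first and Cacna2d3 rose from rank 5 to rank 3, whereas the order within alpha1 and within alpha2delta was the same.

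**Figure D1:**
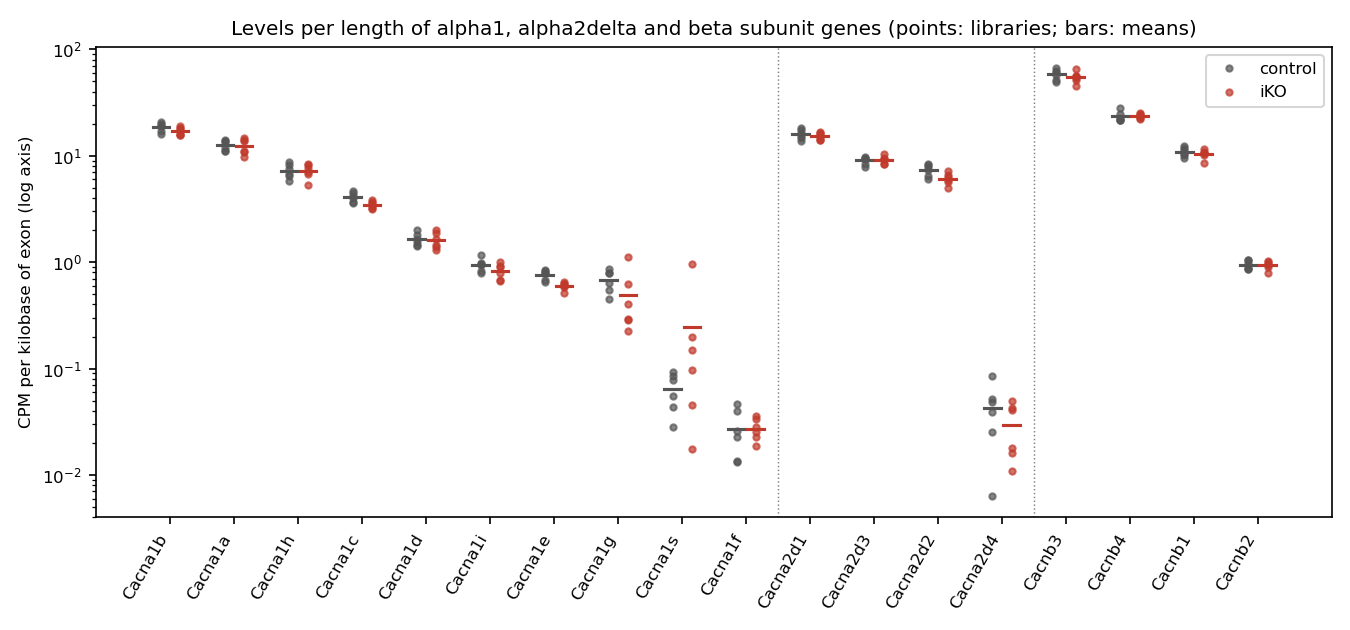
Levels of all alpha1, alpha2delta and beta genes in CPM per kilobase of exon on a log axis, with 1 point per library (6 control, 6 iKO) and bars at the group means. Cacna1b leads the alpha1 genes, Cacna2d1 the alpha2delta genes and Cacnb3 the beta genes in both groups, and the iKO means of Cacna1s and Cacna1g are set by a few high libraries.

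The share of each gene within its subunit class showed the same arrangement in both groups. Of the summed alpha1 level per length over 10 alpha1 genes, Cacna1b took 40.1 ± 1.51% in controls and 39.1 ± 1.75% in iKO (SD, n = 6 each), and Cacna1a 26.8 ± 0.792% and 27.9 ± 1.46%. Cacna1c took 8.81 ± 0.264% in controls and 7.96 ± 0.453% in iKO, and the 2 ranges, 8.39 to 9.18% and 7.53 to 8.68%, overlapped. Within the alpha2delta class Cacna2d2 took 22.7 ± 1.53% in controls and 19.9 ± 2.46% in iKO, and Cacna2d3 27.9 ± 0.891% and 29.9 ± 1.42%. For Cacna2d3 the highest control share, 28.76%, lay just above the lowest iKO share, 28.75%. Among beta genes Cacnb3 held 62.1 ± 3.13% of the class in controls and Cacnb4 25.2 ± 3.42%. No test was made on these shares, which also rest on the exon lengths of the annotation.

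The main comparison asked whether transcript levels differed 1 month after the injections that delete Prdm12. None of the 10 genes differed between iKO and control beyond the threshold of 0.05 on the adjusted p (edgeR quasi-likelihood test with sex as a covariate, Benjamini-Hochberg over 16637 genes). Among all genes tested 0.379% were called, 63 in number. At an unadjusted p under 0.05 there were 3 of 10, Cacna1e, Cacna1c and Cacna2d2, all lower in iKO, where 10.9% of all genes met that limit. limma-voom called 0 (0.397% of all genes) and DESeq2 called 1, Cacna1e, where DESeq2 called 2% of all genes. For 0 of 10 genes did all iKO libraries lie below all controls, which held for 0.523% of all genes. Of the 10 fold changes 7 were negative and 3 positive, with a median of -0.07 on the log2 scale, beside 0.0011 over all genes tested. In bulk RNA fewer cells of a type and less RNA per cell cannot be told apart.

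Cacna1e encodes the R-type pore and showed the lowest log2 fold change. It was at 17.1, 19.9, 16.3, 20.9, 20.04 and 21.3 CPM in controls 1 to 6. In iKO 1 to 6 it was at 14.6, 15.8, 15.7, 16.4, 12.9 and 14.97 CPM. All 6 iKO libraries lay below the control median and 5 below the lowest control, so that the groups overlapped only through iKO 4 and control 3. The means, 19.3 ± 2.06 and 15.1 ± 1.22 CPM (SD, n = 6 each), put iKO at 78.2% of control. The log2 fold change was -0.36 ± 0.09 (SE; 95% interval -0.54 to -0.17), with an edgeR unadjusted p of 0.0012 and adjusted p of 0.103. DESeq2 gave -0.36 with an adjusted p of 0.018. Over the other settings and the libraries left out 1 at a time, edgeR and limma gave adjusted p of 0.0714 to 0.339.

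Cacna1c encodes the main L-type pore of many tissues, including smooth and cardiac muscle. Its lowest, median and highest levels were 76.1, 86.8 and 98.2 CPM in controls and 66.9, 73.8 and 80.6 CPM in iKO. All 6 iKO libraries lay below the control median and 3 below the lowest control, and the groups overlapped. The log2 fold change was -0.23 ± 0.07 (95% interval -0.39 to -0.07; edgeR adjusted p = 0.250), which did not pass. The summed vascular and smooth muscle markers were 204 to 249 CPM in controls and 184 to 306 CPM in iKO, the highest in iKO 5, where Cacna1c was lowest. That library also had the highest skeletal muscle marker sum, 1086 CPM, and the part of skeletal muscle RNA in the vascular sum was not tested.

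Cacna2d2 encodes an alpha2delta subunit that binds gabapentinoids. It was at 48.4, 60.4 and 66.5 CPM (lowest, median and highest) in controls and at 39.2, 48.2 and 57.3 CPM in iKO. Again 6 of 6 iKO libraries lay below the control median and 3 below the lowest control. The log2 fold change was -0.26 ± 0.10 (95% interval -0.47 to -0.05; edgeR adjusted p = 0.339).

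**Figure D2:**
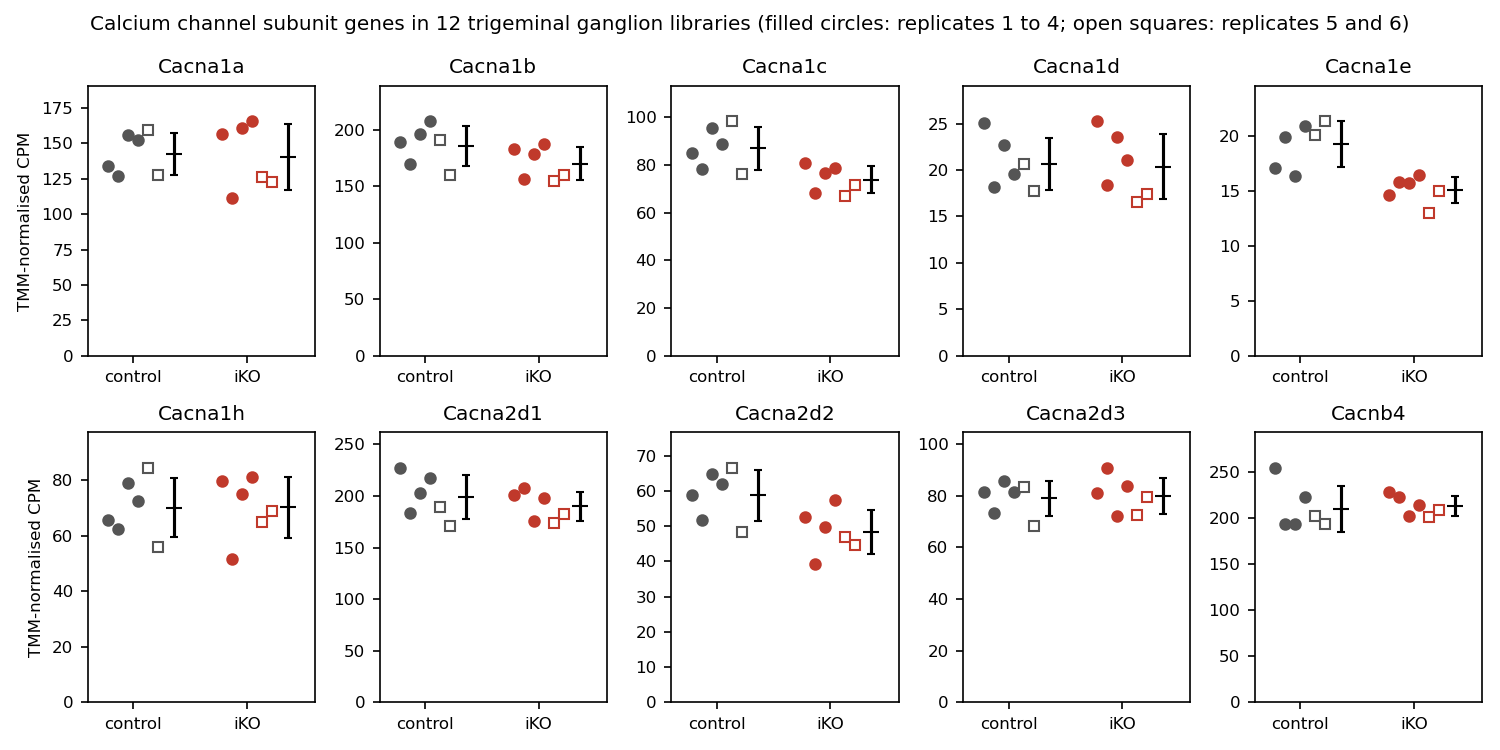
TMM-normalised CPM of the 10 genes in each library (filled circles, replicates 1 to 4; open squares, replicates 5 and 6), with group mean and SD (n = 6 each) to the right of the points and axes that start at 0. All 10 pairs of groups overlap, Cacna1e by 1 library on each side.

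For the pore genes of transmitter release the differences were smaller than their intervals. Cacna1b, the N-type pore, was at 185 ± 17.4 CPM in controls and 170 ± 14.6 CPM in iKO (log2 fold change -0.13, 95% interval -0.29 to 0.04; edgeR adjusted p = 0.587). Cacna1a, the P/Q-type pore, was at 143 ± 14.96 and 141 ± 23.2 CPM, with a log2 fold change of -0.01 (95% interval -0.24 to 0.23). The iKO libraries of Cacna1a split into 3 above the control median and 3 below the lowest control, iKO 2, 5 and 6. Cacna1d, an L-type pore that opens at lower voltage, was at 20.6 ± 2.81 and 20.4 ± 3.51 CPM (log2 fold change -0.06, interval -0.29 to 0.18). The T-type gene Cacna1h was at 70.1 ± 10.7 and 70.3 ± 11.03 CPM (0.03, interval -0.23 to 0.28).

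Cacna2d1, the main gabapentinoid target in sensory neurons, was at 199 ± 21.2 CPM in controls and 190 ± 14.2 CPM in iKO (log2 fold change -0.08, 95% interval -0.23 to 0.08). Cacna2d3, whose loss alters heat pain in mice, was at 78.9 ± 6.63 and 79.9 ± 7.06 CPM (0.02, interval -0.14 to 0.17). Cacnb4 was at 210 ± 24.6 and 212 ± 11.1 CPM (0.00, interval -0.14 to 0.15). The edgeR adjusted p of these 3 genes and of Cacna1a, Cacna1d and Cacna1h was 0.747 to 0.992. A p above the threshold does not show equal levels, and the intervals state which differences remain possible. Since the reads carry no strand, reads of an opposite-strand gene may be counted in 16% of the exon length of Cacnb4 and 4.67% of that of Cacna1d.

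Replicates 1 to 4, in which all 8 animals received tamoxifen, and replicates 5 and 6, in which 4 males of 1 genotype received tamoxifen or corn oil, were also compared apart. In replicates 1 to 4, 0 of 10 genes were called by edgeR (0.114% of all genes were) and 1 had an unadjusted p under 0.05, where 7.93% of all genes did. DESeq2 and limma-voom called 0 of 10 there, and 0.823% and 0.126% of all genes. In replicates 5 and 6, 0 of 10 were called by edgeR (0.00601% of all genes) and 2 had an unadjusted p under 0.05, where 7.87% of all genes did. There DESeq2 called 0 of 10 and 0.421% of all genes, and limma-voom 0 of 10 and 0.00601%. Prdm12 itself had an edgeR adjusted p of 0.0509 in replicates 5 and 6, at means of 94.96 and 16.8 CPM, and was called under 7 of 10 other settings and with 2 of 12 libraries left out.

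Cacna1e had the lower mean in iKO in both sets, with no adjusted p past the threshold. It went from 18.5 ± 2.19 to 15.6 ± 0.753 CPM in replicates 1 to 4 (SD, n = 4; log2 fold change -0.24, 95% interval -0.46 to -0.02; edgeR adjusted p = 0.573). In replicates 5 and 6 it went from 20.7 ± 0.900 to 13.96 ± 1.43 CPM (SD, n = 2; -0.57, interval -0.86 to -0.27; edgeR adjusted p = 0.401). Cacna1c gave -0.16 and -0.33 in the 2 sets, and Cacna2d2 -0.19 and -0.33. Cacna1a gave 0.12 in replicates 1 to 4 and -0.20 in replicates 5 and 6. The values of replicates 5 and 6 rested on single control libraries for Cacna1c, Cacna2d2 and Cacna1a. With 1 library left out, Cacna1e ran there from -0.68 without iKO 6 to -0.48 without iKO 5. Without control 6 and without control 5, in that order, Cacna1c gave -0.51 and -0.15, Cacna2d2 -0.55 and -0.09, and Cacna1a -0.36 and -0.04. In replicates 1 to 4 Cacna1a ran from 0.07 without iKO 3 to 0.21 without iKO 2, and Cacna2d2 gave -0.12 without iKO 2. The difference between the sets was tested as an interaction, and 0 of 10 genes, like 0% of all genes, were called by edgeR. At an unadjusted p under 0.05 there were 0 of 10 and 3.41% of all genes. DESeq2 called 0 of 10 and 0.0301% of all genes, and limma-voom 0 of 10 and 0%. The genes with the smallest p were Cacna1e (a difference of -0.33 between the log2 fold changes, unadjusted p = 0.0729) and Cacna1a (-0.33, unadjusted p = 0.110), both with an edgeR adjusted p of 1.00.

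**Figure D3:**
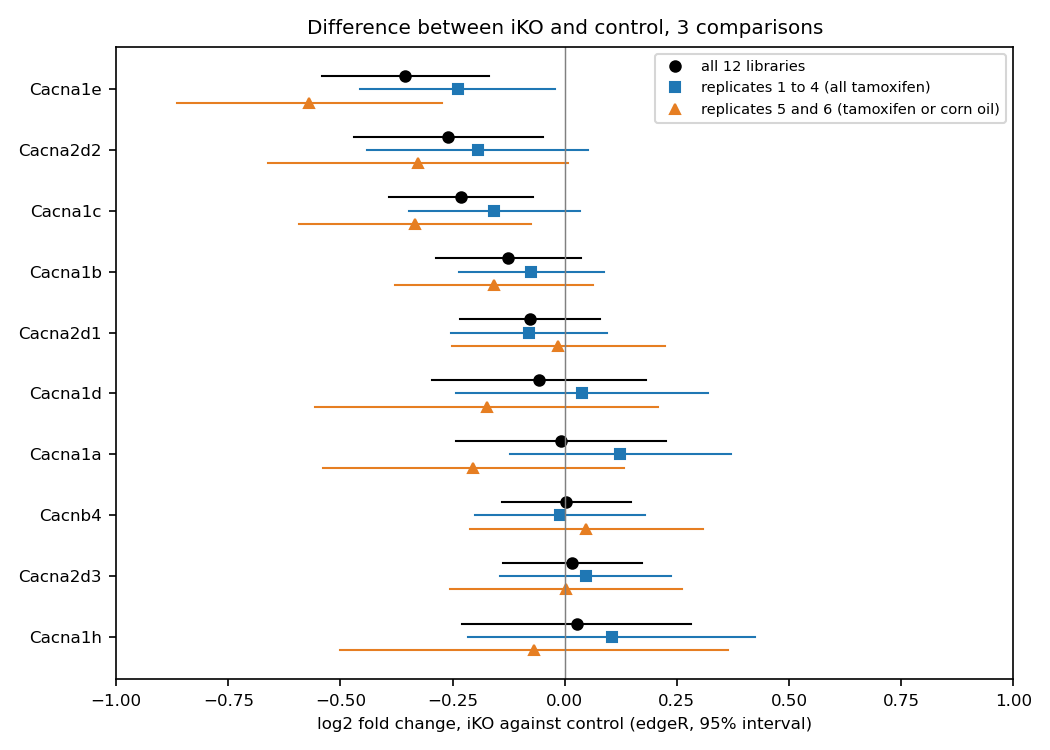
Log2 fold change of iKO against control for each gene with its 95% interval from edgeR, in all 12 libraries (black), replicates 1 to 4 (blue) and replicates 5 and 6 (orange). Cacna1e lies below 0 with its whole interval in all 3 comparisons, from -0.24 to -0.57, and none of the adjusted p passed.

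Sex was the covariate of the fit and gave no calls among the channel genes. In the same edgeR fit 0 of 10 genes were called between males and females (0.108% of all genes were), and 0 had an unadjusted p under 0.05, where 10.2% of all genes did. DESeq2 and limma-voom called 0 of 10, and 0.301% and 0.0841% of all genes. The log2 differences, male minus female, ran from -0.20 for Cacna1d (edgeR adjusted p = 0.544) to 0.12 for Cacna1h (0.727).

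Within a library the 10 genes tended to deviate from their means in the same direction, in controls as well as in iKO. All 10 were below their own 12-library mean in iKO 5, 9 of 10 in iKO 6, control 2 and control 6, and 7 of 10 in iKO 2. In control 1, control 3, control 5, iKO 1 and iKO 4 only 2 of 10 were below it, and in control 4 only 1. All 6 alpha1 genes were below the mean in iKO 2, iKO 5 and iKO 6. In iKO 3 the genes were divided, with 6 of 10 below: 2 of the 6 alpha1 genes and all 4 others. Such counts are not given for all genes, so whether the pattern is particular to the channel genes was not tested. Cacna1e was the exception in both low control libraries: control 2 and control 6 had 19.9 and 21.3 CPM of Cacna1e, above its mean, while the other 9 genes were below theirs.

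**Figure D4:**
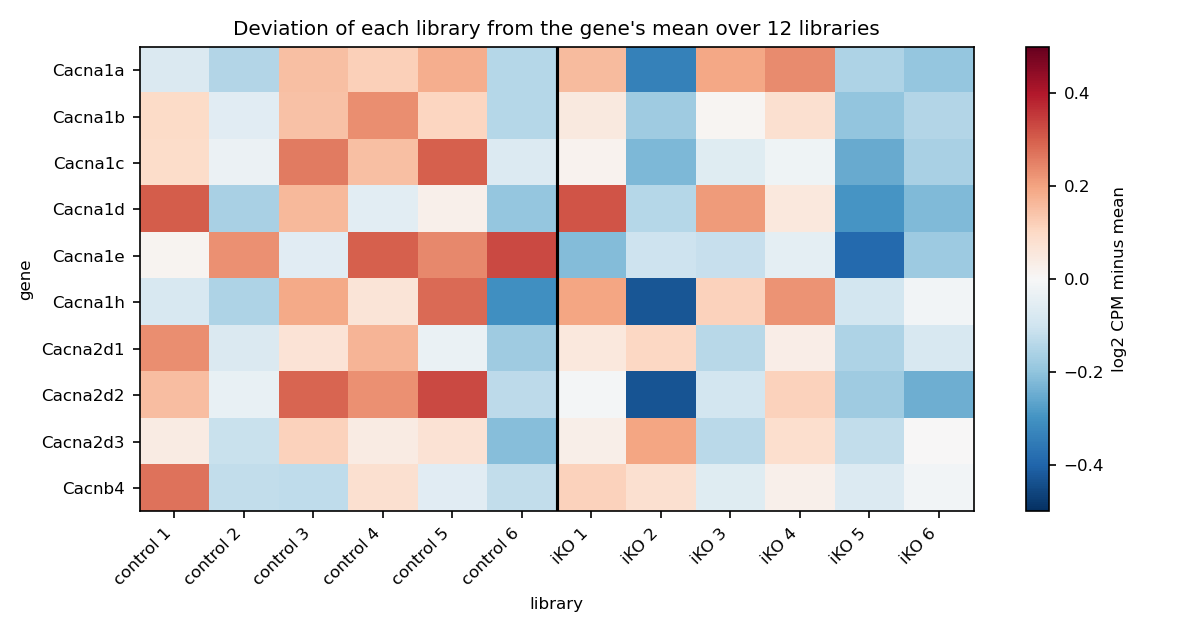
Deviation of each library's log2 CPM from the gene's own mean over 12 libraries, for the 10 genes, with red above and blue below the mean and a line between control and iKO. The columns of iKO 5 and of control 6 are nearly all blue, apart from Cacna1e in control 6. The column of iKO 2 is blue for all 6 alpha1 genes and Cacna2d2 and red for Cacna2d1, Cacna2d3 and Cacnb4.

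Tissue markers are given beside these values. The summed oligodendrocyte and astrocyte markers, 8 of 8 detected, were 2749 CPM in control 6 and 1638 CPM in control 2, against 366 to 1248 CPM in the other libraries. The low libraries iKO 5 and iKO 6 had 1045 and 951 CPM, less than control 5, where 2 of 10 genes were below their means. The summed brain neuron markers were 287 CPM in control 6 and 305 CPM in control 2. Sums ran from 287 to 367 CPM in controls and from 254 to 322 CPM in iKO. That list includes Camk2a, itself at 129 ± 14.2 CPM in controls and 103 ± 10.4 CPM in iKO. Of the list's 7 genes only 4 had enough counts for testing. The sum therefore cannot show whether brain neuron RNA differed between libraries. The part of these tissue markers in the level of Cacna1e was not tested. Without control 6 the log2 fold change of Cacna1e was -0.33, and without control 2 it was -0.34. The summed sensory neuron markers were lowest in control 6 and second lowest in iKO 5. Scaling by these neuron markers in place of TMM moved Cacna1e to -0.31, Cacna1c to -0.17 and Cacna2d2 to -0.20, and edgeR called none. The same scaling moved the median over all genes from 0.0011 to 0.057, so these moves were not particular to the 3 genes.

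Base composition differed in iKO 2. There the median deviation of the fifth of genes richest in GC minus that of the fifth poorest was -0.45 on the log2 scale, against -0.23 in control 1 and -0.09 to 0.20 in the others. Cacna1h, Cacna1a and Cacna2d2 had 59.95%, 58.4% and 55.8% GC in their longest transcripts. Their values in iKO 2, at 51.6, 111 and 39.2 CPM, were the lowest of the 12 libraries. Cacna2d3, with 49.1% GC, had its highest value there, 90.7 CPM. Cacna1c, Cacna1d and Cacna1e, with 50.3%, 49.6% and 48.3% GC, were below their means in iKO 2, at 68.3, 18.4 and 15.8 CPM. With an offset for GC in each library, edgeR gave Cacna1e -0.37 (adjusted p = 0.0714), Cacna1c -0.24 (0.153) and Cacna2d2 -0.23 (0.262).

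Markers of neuron classes and other cells gave a mixed picture. Small neurons with low-threshold C fibres or cold responses had 4 matched markers, all 4 with negative fold changes and 0 called, with sums of 131 to 226 CPM in controls and 87.3 to 163 CPM in iKO. Of 8 peptidergic nociceptor markers 1 was called, lower in iKO, and the sums were 1366 to 1670 and 1198 to 1500 CPM. None of 9 nonpeptidergic and none of 8 large myelinated neuron markers was called. Of 8 Schwann cell markers 1 was called, higher, and of 10 fibroblast and meningeal markers 1 was called, lower. All 10 of the latter had negative fold changes, with a median of -0.52 on the log2 scale and sums of 1951 to 3557 CPM in controls and 1341 to 2518 CPM in iKO. The 6 macrophage markers were also all negative (217 to 315 and 156 to 271 CPM), as were the 5 tested lymphocyte markers, and all 10 skeletal muscle markers were positive. In the lists of satellite glia, vascular and smooth muscle, macrophage, lymphocyte, skeletal muscle, oligodendrocyte and astrocyte, brain neuron, choroid plexus, pituitary and shared sensory neuron markers, 0 were called. The part of these lists in the levels of the channel genes was not tested.

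The rest of the subunit family was read next. Of the other 16 alpha1, beta, alpha2delta and gamma genes, 11 had enough counts for testing. By edgeR 0 were called up or down, where 0.379% of all genes were, and 0 had an unadjusted p under 0.05. All 11 fold changes were negative, with a median of -0.13 and a range of -0.54 to -0.03 on the log2 scale. Among all 16637 genes tested 8234 were negative, with a median of 0.0011. Scaling by neuron markers moved that median to 0.057, more than the smallest of the 11 differences. The signs of the 11 under that scaling are not given. In replicates 1 to 4, 8 of the 11 were negative. The smallest p-values belonged to Cacng3 (2.06 ± 0.300 CPM in controls, 1.62 ± 0.396 in iKO; -0.37, edgeR adjusted p = 0.529) and Cacng2 (16.9 ± 1.54 and 15.1 ± 1.65 CPM; -0.15, 0.566), whose products are mainly known as auxiliary subunits of AMPA receptors. Cacna1g, a T-type pore named after its values were seen, had its highest level, 11.2 CPM, in iKO 3, against 2.28 to 8.73 CPM in the others. That library also had the highest pituitary marker sum. Cacna1g was at 8.73 CPM in control 2, where the pituitary sum was 684 CPM. It was lowest, at 2.28 CPM, in iKO 2, where the sum was 344 CPM, and at 7.97 CPM in control 6, where the sum was 8.86 CPM. A link between the 2 was not tested.

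Of 23 regulators and partners of the channels, 22 were tested and 0 were called, with 8 positive and 14 negative fold changes and a median of -0.02. Rims2, an active zone protein that binds channels and vesicles, was at 59.4 ± 5.04 CPM in controls and 51.8 ± 4.67 in iKO (-0.22, edgeR adjusted p = 0.147). Thbs2, of the thrombospondin family, members of which bind alpha2delta, was at 21.6 ± 3.60 and 15.3 ± 3.18 CPM (-0.51, edgeR adjusted p = 0.184). Of 30 genes of calcium handling downstream of the channels, all 30 were tested and 0 were called, with a median of -0.02. Camk2a, a calcium and calmodulin dependent kinase, was at 129 ± 14.2 and 103 ± 10.4 CPM (-0.32, edgeR adjusted p = 0.130), and its groups did not overlap, which 1.2% of all genes shared in either direction. Ryr1, the calcium release channel of skeletal muscle, was at 2.11 ± 0.516 and 6.66 ± 8.33 CPM (1.61, edgeR adjusted p = 0.205).

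Some channel genes known from skeletal muscle, named after their values were seen, were high in iKO 5 and iKO 6. Cacna1s, the muscle L-type pore, was at 0.185 to 0.602 CPM in controls, at 6.31 CPM in iKO 5 and 1.29 CPM in iKO 6. Cacng1, its gamma subunit, was at 0.120 to 0.413 CPM in controls, 1.497 in iKO 5 and 1.08 in iKO 6. Ryr1 reached 23.3 CPM in iKO 5 and 6.22 in iKO 6, against 1.61 to 2.89 CPM in controls. These 3 genes were highest in the libraries with the highest muscle marker sums, and a count of 3 corresponds to 0.121 to 0.228 CPM in these libraries. Cacna1s and Cacng1 were too low to be tested. Cacnb1 and Cacna2d1, also subunits of the skeletal muscle channel, lay within their control ranges in iKO 5. Cacnb1 was at 47.5 CPM (43.3 to 55.4 CPM in controls) and Cacna2d1 at 174 CPM (171 to 227 CPM in controls). These ranges are wider than the 6.31 CPM of Cacna1s in iKO 5, so the values cannot show whether muscle RNA added to them. The opposite-strand gene Gm37759 covers 20% of the exon length of Cacna1s.

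**Figure D5:**
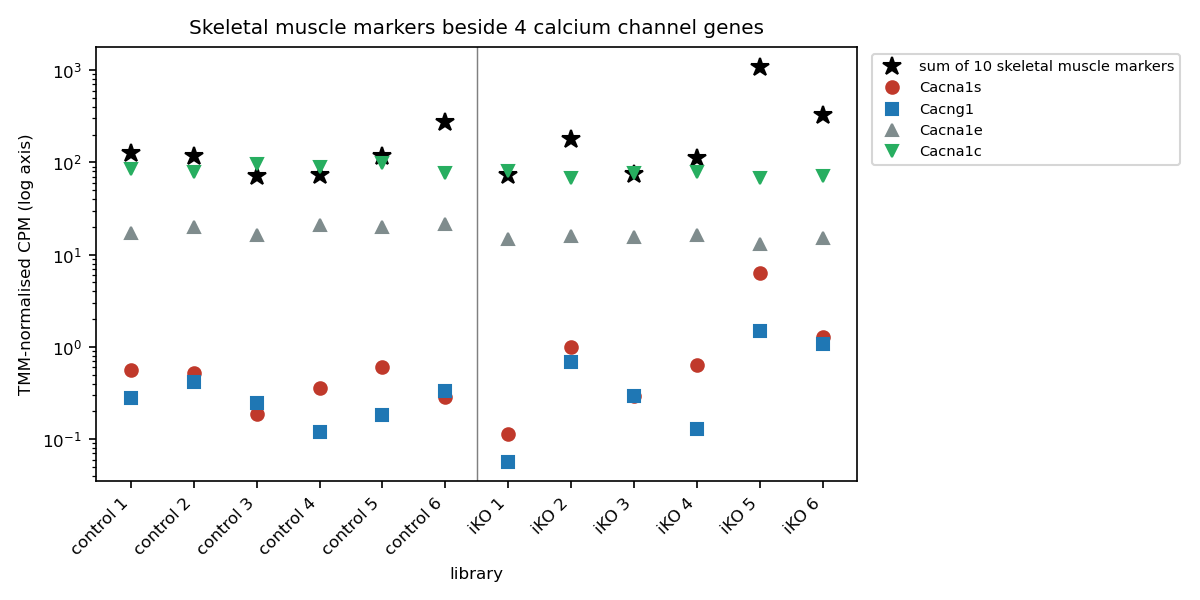
TMM-normalised CPM on a log axis in the 12 libraries for the sum of 10 skeletal muscle markers (stars), the muscle channel genes Cacna1s and Cacng1, and Cacna1e and Cacna1c. The muscle sum and Cacna1s both peak in iKO 5, at 1086 and 6.31 CPM, where Cacna1e and Cacna1c have their lowest values, 12.9 and 66.9 CPM.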

How the data were processed

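For each library the authors deposited a file of raw, unnormalised read counts per gene identifier. Per the labels' protocols, polyadenylated RNA from TRIzol extracts went into an unstranded TruSeq preparation. Tools listed in the submitters' processing notes are STAR 2.7.8a, featureCounts 2.0.1 and bcl2fastq 2.20.0.422, and the build is GRCm39. For the annotation release and the counting options the entry is "not given in the sources used here". Symbols came from tables of GRCm38, used for names only, and 3333 identifiers without a symbol held 0.274% of counts. Exon length, GC of the longest transcript and coding sequence came from GENCODE M21 (GRCm38). Coding sequence was taken as the longest open reading frame.

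The deposited counts went into edgeR 4.0.16 (R 4.3.3) after filterByExpr, which left 16637 genes, all 10 channel genes among them. TMM factors ran from 0.969 to 1.02. The standard error is the fold change over the root of its F statistic. The replicate sets were contrasts in 1 fit of all 12 libraries. Alternatives used limma 3.58.1 (voom), DESeq2 1.42.0, other scalings and filters, and fewer libraries. The code was tested on simulated data.

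Groups came from the labels, which number the replicates but do not say that they were separate litters or preparations, so p-values measure the spread between these samples, which may in part be technical. The chi-square per degree of freedom was 7.77 to 28.8 over the 30 pairs of libraries of 1 group, counting genes with at least 20 summed reads, so no pair was treated as 1 library. Limits of 3 counts cover counting error only, since reads carry no molecular identifiers.

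The channel genes, 3 further gene lists and 16 marker lists were chosen with earlier results of these data known. Text names Prdm12 and the 10 genes, and of each other gene list the members past the threshold, up to 4, otherwise the 2 of smallest p, and any member at 0 in every library. Other names were chosen after their values were seen.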

Additional observations from a re-analysis of the deposited data

How the results depend on the processing

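No channel gene was called in any comparison except Cacna1e, by DESeq2 in all 12 libraries (1 gene called in place of 0) and by edgeR without a filter in replicates 5 and 6 (1 in place of 0; log2 fold change -0.56, adjusted p = 0.0204); leaving out 1 library at a time gave 0 in all 5 comparisons. Counts over all genes moved more, and the cause was not tested. In all 12 libraries the 63 calls became 332 with DESeq2, 138 without a filter, 28 in tamoxifen-injected animals only, 23 without control 6, iKO 3 and iKO 6, and 23 (without control 2) to 88 (without control 6) with 1 library left out; they fell below 63 by more than 1.5 times also without control 1, 3 or 5 and without iKO 1, 5 or 6. In replicates 1 to 4 the 19 became 137 with DESeq2, 621 without a filter, 12 when fitted alone, and 2 (without iKO 4) to 18, with 9 or fewer also without control 1, 2 or 3 or iKO 1, 3, 5 or 6. In replicates 5 and 6 the 1 became 70 with DESeq2, 1014 without a filter, 0 when fitted alone, 2 each with RLE scaling, without the sex covariate, with sensory neuron scaling and with a stricter filter (above 1 CPM in 6 libraries), and 1 to 26 (without iKO 6), above 1 also without control 3 or 6 or iKO 2 or 5. The difference between the sets went from 0 to 5 with DESeq2, 578 without a filter, and 0 to 15 (without iKO 6). The 18 calls between sexes became 50 with DESeq2, 33 without a filter, and 11 (without control 1 or iKO 6) to 15. Offsets for GC, added after seeing the data as was the longest-transcript length, gave 143, 51 and 5 calls in the 3 comparisons of iKO and control. With the replicate number as a block, calls were 15 in all 12 libraries and 3 in replicates 1 to 4, and Cacna1e was at -0.41 (adjusted p = 0.154). The numbers were not used as pairs: deviations of same-numbered samples correlated at -0.15 to 0.33, and none of the samples correlated best with its own number. Some signs turned, the furthest to 0.24 for Cacna1h in replicates 5 and 6 without control 5. All were of genes with a main log2 fold change near 0, from -0.080 to 0.048, and none was called. In all 12 libraries these were Cacna1a (0.045 with neuron scaling, 0.027 with GC offsets, -0.072 to 0.050 with 1 library left out), Cacna1h (-0.043 without the 3 libraries, -0.031 to 0.083), Cacna2d3 (-0.011 with tamoxifen only, -0.019 to 0.050) and Cacnb4 (-0.022 with tamoxifen only, -0.0036 with GC offsets, -0.048 to 0.075). In replicates 1 to 4 they were Cacnb4 (0.0057 without sex, 0.018 with neuron scaling, 0.013 with GC offsets, -0.097 to 0.11), Cacna1d (-0.084 to 0.16), Cacna2d1 (-0.15 to 0.0041) and Cacna2d3 (-0.0075 to 0.097). In replicates 5 and 6 they were Cacna1h (0.0015 with neuron scaling, 0.014 with GC offsets, -0.34 to 0.24), Cacna2d1 (0.041 with neuron scaling, -0.090 to 0.049), Cacna2d3 (-0.0016 with GC offsets, -0.14 to 0.14) and Cacnb4 (-0.0066 with GC offsets).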
